A study of Mus musculus with 6 samples.

Results

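The genes described here are 10 genes of epithelial cell contacts and of the switch between epithelial and mesenchymal states, measured in mouse embryonic stem cells (mESCs). They were chosen by name from the 43309 genes of the count table, with earlier results of these data known. They are Cdh1, Cdh2 and Epcam (adhesion molecules), Cldn4, Cldn6, Cldn7, Ocln and Tjp1 (tight junction), Esrp1 (splicing regulator) and Zeb1 (transcription factor). The comparison asks how these genes differ between stem cell lines of different Zbtb24 genotype labels, Zbtb24 being a zinc finger gene. The control group held 3 libraries of lines labelled Zbtb24 wild-type (2lox/+), which carry 1 floxed allele, and the other group held 3 libraries of lines labelled Zbtb24 knockout (1lox/1lox). All lines had the strain label J1 (129SV) and grew in serum medium on gelatin with no feeder layer. Each library came from a separate clone, and a group stands for 3 clones of 1 strain. At the median gene, the squared difference between a pair of libraries of a group was 1.123 to 1.597 times that of counting error alone. The mean of this ratio over genes was 1.143 to 2.242. Clones of a group thus differed little at the median gene, where SDs, SEs and p-values rest on a spread not far above counting error. Polyadenylated RNA from 2 µg of total RNA was made into strand-specific TruSeq libraries with 8 cycles of PCR.

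Library totals ran from 25042261 to 28838924 counts, and all 10 genes had enough counts to be tested. Zbtb24 itself, which checks the labels, had 489 to 512 counts in the control libraries and 888 to 1039 in the libraries labelled knockout (log2 fold change 0.99 ± 0.05 SE, n = 3 per group, adjusted p = 4.319e-23 by the quasi-likelihood test of edgeR, adjusted over all genes after Benjamini and Hochberg). That direction goes against the label, and a total per gene cannot tell the deleted exons from the others. The second group is therefore called the libraries labelled knockout throughout. Of 8 pluripotent cell markers all were expressed, Pou5f1 with an FPKM of 841.6 in the control group and 965.8 in the other, so the labelled cell type had its defining markers in both groups. FPKM, fragments per kilobase of transcript scaled to the library size, is the scale on which levels are compared between genes, and cpm, the same without the transcript length, is the one on which a gene is compared between libraries.

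Neighbouring epithelial cells are joined by adherens junctions, where E-cadherin from Cdh1 binds its like on the next cell and the catenins inside, and by tight junctions, where claudins and occludin form the seal and ZO-1 from Tjp1 ties it to actin. Mouse embryonic stem cells share part of this epithelial program: they grow in compact colonies held by E-cadherin. In an epithelial-mesenchymal transition (EMT), transcription factors such as Zeb1 repress epithelial genes through E-box motifs, splicing regulators of the Esrp family are lost, and N-cadherin from Cdh2 often takes the place of E-cadherin.

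In the libraries labelled knockout, 9 of the 10 genes had lower transcript levels than in the control group and 1, Zeb1, had higher. Over all 16823 genes tested, 35.2% were called lower and 34.4% higher at an adjusted p of at most 0.05, so a call as such was common. The sizes of the changes were not alike. Cldn4, Cldn6, Cldn7 and Esrp1 fell by more than 1 on the log2 scale, as did 11.8% of all genes, and Zeb1 rose by more than 1, as did 5.21% of all genes. Cdh1, Cdh2 and Epcam fell less, and Ocln and Tjp1 least. For all 10 genes the 3 libraries of one group lay wholly to one side of the other 3, as they did for 71.5% of all genes tested. The median log2 fold change of the 10 genes was -0.78, beside a median near 0 over all genes tested. Because the 10 genes and the lists below were chosen with earlier results known, such comparisons with all genes describe the sets and test nothing. In bulk RNA, fewer cells that express a gene and less RNA of that gene per cell cannot be told apart.

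**Figure D1:**
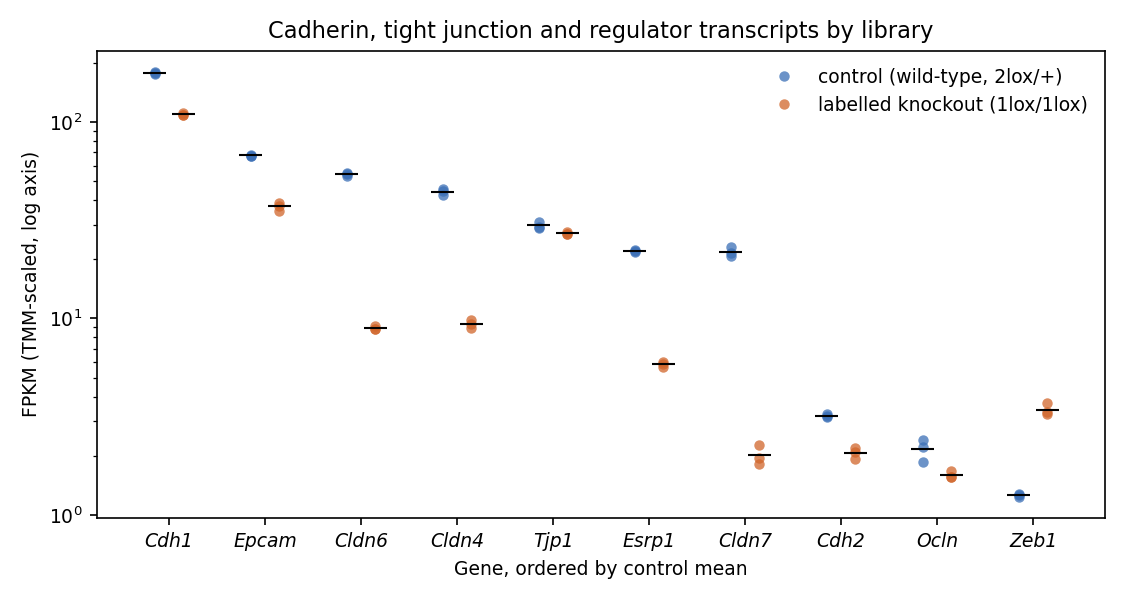
FPKM of the 10 genes in each library on a log axis, with genes ordered by the control mean, blue points for control libraries, orange points for libraries labelled knockout and black lines for group means. Cdh1 had the highest mean in both groups (177.8 and 109.8), and Zeb1 was the gene with higher values in the libraries labelled knockout.

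Per kilobase of transcript, Cdh1 had the highest level of the 10 in the control group, with an FPKM of 177.8 ± 1.79 (SD, n = 3), above 97.5% of the genes tested in its mean over all 6 libraries. Epcam followed at 67.6 ± 0.396, then Cldn6 at 54.1 ± 1.08, Cldn4 at 44.2 ± 1.45 and Tjp1 at 29.7 ± 1.12. Esrp1 at 22.04 ± 0.184 and Cldn7 at 21.8 ± 1.10 overlapped between libraries and had no order. Cdh2, at 3.20 ± 0.0654, Ocln, at 2.16 ± 0.283, and Zeb1, at 1.26 ± 0.0222, were low. In the libraries labelled knockout Cdh1 (109.8 ± 1.10) and Epcam (37.2 ± 1.73) stayed in front, and Tjp1 (27.1 ± 0.274) came next, ahead of the claudins. Cldn4 (9.37 ± 0.429) and Cldn6 (8.95 ± 0.209) then overlapped, as did Cdh2 (2.06 ± 0.141) and Cldn7 (2.01 ± 0.236), while Zeb1 (3.43 ± 0.239) stood above both of the latter and Ocln (1.599 ± 0.0648) was last.

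The reference promoters of 6 of the genes were read because repression by Zeb1 and the Snail factors acts on E-box motifs near start sites. Each promoter runs from 250 bases before the annotated start to 50 bases after it, as RefSeq gives it on GRCm38.p6. The motif searched was CAGGTG, read on both strands, so that it appears as CAGGTG or as its reverse complement CACCTG. It was present in 20.2% of the 32851 promoters of the table, and at least 2 copies were in 2.88% of them. Of the 8 annotated promoters of Cldn4, Cldn6, Cldn7, Epcam, Ocln and Tjp1, 6 held it. This count leaves out Cdh2 and Zeb1, the gene that rose, whose promoters were not read. It also leaves out Cdh1 and Esrp1, for which the set used held no promoter. Promoters of the claudins and that of Epcam are shown because these genes fell furthest among those read, and that of Tjp1 because this gene fell least. Of the 2 promoters of Cldn7, only the one that held the motif is shown. Letters in capitals mark the motif.
Cldn4, chr5:134946885-134947184, minus strand: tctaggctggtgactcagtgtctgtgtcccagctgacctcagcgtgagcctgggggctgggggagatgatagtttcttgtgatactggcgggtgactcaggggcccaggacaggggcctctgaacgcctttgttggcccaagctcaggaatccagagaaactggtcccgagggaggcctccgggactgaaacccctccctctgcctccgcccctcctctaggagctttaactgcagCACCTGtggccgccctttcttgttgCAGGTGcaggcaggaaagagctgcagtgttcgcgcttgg
Cldn6, chr17:23679115-23679414, plus strand: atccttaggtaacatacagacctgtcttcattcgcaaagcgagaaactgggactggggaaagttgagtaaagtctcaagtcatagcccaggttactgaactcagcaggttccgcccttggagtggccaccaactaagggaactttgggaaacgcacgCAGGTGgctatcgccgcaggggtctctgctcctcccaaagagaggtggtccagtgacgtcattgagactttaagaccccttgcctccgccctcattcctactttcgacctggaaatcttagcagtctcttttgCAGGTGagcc
Cldn7, chr11:69965171-69965470, plus strand: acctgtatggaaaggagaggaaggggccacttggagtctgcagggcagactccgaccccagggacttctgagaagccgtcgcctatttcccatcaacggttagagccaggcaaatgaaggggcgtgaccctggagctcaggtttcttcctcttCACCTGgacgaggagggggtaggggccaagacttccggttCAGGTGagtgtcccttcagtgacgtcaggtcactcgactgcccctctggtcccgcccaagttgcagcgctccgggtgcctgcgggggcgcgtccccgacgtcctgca
Epcam, chr17:87635729-87636028, plus strand: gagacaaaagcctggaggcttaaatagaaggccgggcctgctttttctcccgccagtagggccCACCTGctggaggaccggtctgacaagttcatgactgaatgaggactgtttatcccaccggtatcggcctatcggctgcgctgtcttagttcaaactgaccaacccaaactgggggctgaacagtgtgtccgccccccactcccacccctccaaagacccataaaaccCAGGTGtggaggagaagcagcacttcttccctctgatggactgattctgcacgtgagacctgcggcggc
Tjp1, chr7:65371195-65371494, minus strand: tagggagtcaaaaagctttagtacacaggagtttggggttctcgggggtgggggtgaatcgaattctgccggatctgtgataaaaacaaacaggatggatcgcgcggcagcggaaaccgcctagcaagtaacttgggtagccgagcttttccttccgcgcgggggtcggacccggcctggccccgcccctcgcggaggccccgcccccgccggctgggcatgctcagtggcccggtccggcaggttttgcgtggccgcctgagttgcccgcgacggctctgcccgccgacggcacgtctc

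In Cldn4 the motif began 14 bases before the start site and again 11 bases after it. Cldn6 had it 93 bases before and 40 bases after the start. Epcam had it 187 and 19 bases before the start. Cldn7 has 2 annotated promoters, and the motif was 97 and 57 bases before the start of the one shown. That window lies inside the gene, which runs from 69964779 to 69967885 on the plus strand. The motif was not found in the other window, chr11:69964529-69964828, which spans the outermost start of Cldn7. Ocln, whose log2 fold change was far smaller than that of the claudins, also held the motif in both of its promoters, which overlap. The same copy lies 7 bases after the first start and 213 bases before the second, and it was counted in both windows. The second window held a further copy 68 bases before its start. The Tjp1 window held no copy. It lies inside the gene, which runs from 65296165 to 65527781 on the minus strand, and the outermost start of Tjp1 was not read. These matches describe letters in the reference and not sites bound in these cells.

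Cdh1, which encodes E-cadherin (ENSMUSG00000000303.8, chromosome 8, 106603351 to 106670246, mm10), was measured at 796.7, 781.4 and 785.4 cpm in the control libraries and at 483.7, 483.7 and 492.2 cpm in the libraries labelled knockout. The ranges were far apart against a spread of a few percent within each group. The level in the libraries labelled knockout was 61.8% of that in the control group (log2 fold change -0.70 ± 0.02 SE, n = 3 per group, adjusted p = 6.315e-31 by edgeR's quasi-likelihood test).

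Cdh2, which encodes N-cadherin (ENSMUSG00000024304.10, chromosome 18, 16588877 to 16809246), was low in every library: 15.2, 15.5 and 15.8 cpm in the control group and 9.27, 10.1 and 10.6 cpm in the other. It fell by about as much as Cdh1, to 64.6% of the control level (log2 fold change -0.63 ± 0.07 SE, n = 3 per group, adjusted p = 1.524e-11 by edgeR's quasi-likelihood test). The ratio of the Cdh1 count to the Cdh2 count, which does not depend on the scaling of libraries, was 52.5, 50.4 and 49.7 in the control group against 52.2, 48.0 and 46.3 in the libraries labelled knockout. The 2 sets of ratios overlapped, and the mean log2 ratio was 5.67 ± 0.04 (SD, n = 3) against 5.61 ± 0.09 (difference -0.06, two-sided exact permutation p = 0.4). With 3 libraries against 3 this test cannot give a p under 0.1, so a small shift in the ratio could not be tested here.

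**Figure D2:**
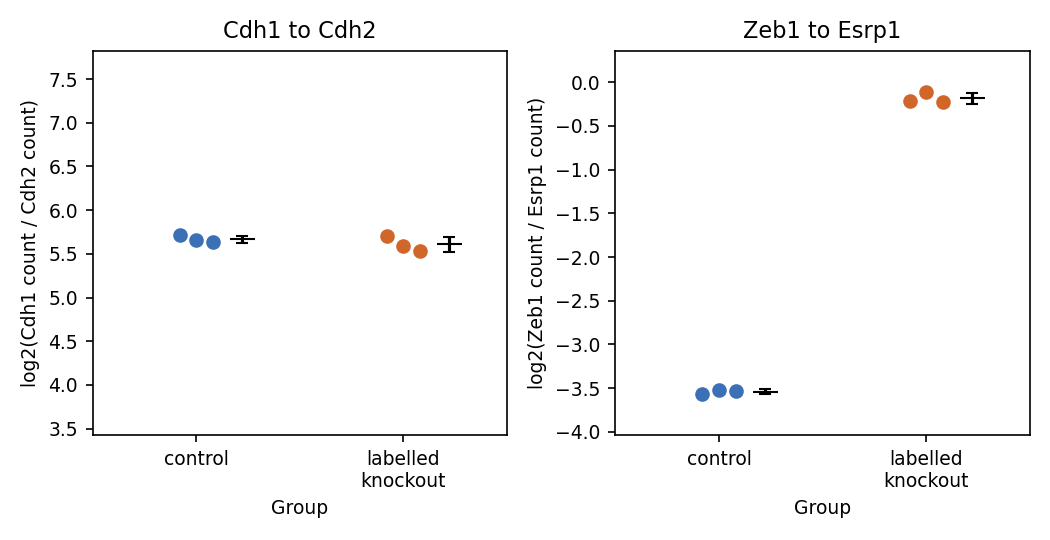
Ratio of Cdh1 to Cdh2 counts (left) and of Zeb1 to Esrp1 counts (right) in each library on a log2 scale, both axes spanning the same number of log2 units, with black bars for the mean ± SD of 3 libraries. The Cdh1 to Cdh2 ratios of the groups overlap (means 5.67 and 5.61), and the Zeb1 to Esrp1 ratios do not (means -3.54 and -0.18).

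Cdh3, which encodes P-cadherin and lies 46.1 kb from Cdh1 on chromosome 8, did not pass the test: it had 69.0 to 71.9 cpm in the control group and 71.5 to 73.4 cpm in the other (log2 fold change 0.04 ± 0.03 SE, adjusted p = 0.232 by edgeR's quasi-likelihood test), and its sign turned when libraries were scaled by their totals. Over the 14 cadherin genes listed, the summed FPKM was 203.0 ± 2.04 in the control group and 131.3 ± 1.33 in the libraries labelled knockout, 64.7% of the control sum. Cadherin genes outside the list are not part of this sum. Cdh1 made up 87.6% ± 0.116 (SD, n = 3) of the sum over the listed genes in the control group and 83.6% ± 0.130 in the other. The share of Cdh3 was 7.91% ± 0.111 and 12.6% ± 0.173. Cdh2 held 1.58% ± 0.0458 and 1.57% ± 0.0969, and its ranges overlapped. With 3 libraries against 3 the smallest two-sided exact permutation p is 0.1, which the Cdh1 and Cdh3 shares reached, and over the 21 ratios and shares compared this becomes 0.14 after Benjamini-Hochberg adjustment. Of 12 further cadherin genes listed, 10 were tested, of which 6 fell and 0 rose, with a median log2 fold change of -1.16. Over all genes tested 35.2% fell and 34.4% rose. Most of the further cadherin genes were barely expressed. Among those with a mean of at least 100 counts, Cdh24 fell to 7.43, 6.62 and 7.40 cpm from 11.1, 11.2 and 11.8 cpm (log2 fold change -0.67).

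The next list held catenins, which link cadherins to actin, and nectins, a second family of adhesion molecules in adherens junctions. It also held Vcl, Afdn and Plekha7. Of its 13 genes, 12 were lower and 0 higher, with a median log2 fold change of -0.46. Among all genes tested 35.2% were lower and 34.4% higher. Ctnnb1, which encodes the beta-catenin that binds E-cadherin, changed little: it had 741.3 to 758.0 cpm in the control group and 709.8 to 716.9 cpm in the other (log2 fold change -0.08 ± 0.02 SE, adjusted p = 0.002344 by edgeR's quasi-likelihood test). The log2 ratio of Cdh1 to Ctnnb1 counts moved by -0.62, with groups that did not overlap (exact permutation p = 0.1, two-sided, n = 3 per group). That of Cdh1 to Jup, which encodes the related gamma-catenin and was singled out after its values were seen, was 0.96 ± 0.01 and 0.93 ± 0.05, and the groups overlapped (exact permutation p = 0.4, two-sided, n = 3 per group). Nectin4 fell furthest of the list, from 6.72, 6.92 and 6.99 cpm to 2.22, 1.87 and 2.06 cpm (log2 fold change -1.74 ± 0.12 SE).

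Epcam (ENSMUSG00000045394.8, chromosome 17, 87635979 to 87651129) encodes an adhesion molecule of epithelia and embryonic stem cells that binds claudin 7. It was measured at 137.3, 138.8 and 137.7 cpm in the control libraries and at 76.4, 72.1 and 79.1 cpm in the libraries labelled knockout. The groups did not overlap, and the level was 55.1% of that in the control group (log2 fold change -0.86 ± 0.03 SE, n = 3 per group, adjusted p = 4.604e-29 by edgeR's quasi-likelihood test). Its change lay near that of Cdh1, but the log2 ratio of Cdh1 to Epcam counts was higher in all 3 libraries labelled knockout (2.68 ± 0.06 against 2.51 ± 0.02, exact permutation p = 0.1, two-sided, n = 3 per group).

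The claudins fell furthest. Claudins span the membrane at tight junctions and set which ions pass between cells. Cldn7 (ENSMUSG00000018569.8, chromosome 11, 69964779 to 69967885) had 27.8, 30.7 and 28.9 cpm in the control libraries and 3.03, 2.60 and 2.41 cpm in the libraries labelled knockout. Its level there was 9.19% of that in the control group (log2 fold change -3.44 ± 0.08 SE, n = 3 per group, adjusted p = 1.045e-36 by edgeR's quasi-likelihood test), from 64 to 79 counts per library against 783 to 844.

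Cldn6 (ENSMUSG00000023906.2, chromosome 17, 23679249 to 23682446), a claudin of early embryonic epithelia, had 89.1, 88.3 and 85.7 cpm in the control group and 14.9, 14.3 and 14.4 cpm in the other. The groups were far apart, at 16.6% of the control level (log2 fold change -2.60 ± 0.04 SE, n = 3 per group, adjusted p = 4.252e-43 by edgeR's quasi-likelihood test). Cldn4 (ENSMUSG00000047501.2, chromosome 5, 134945119 to 134946934) had 77.3, 82.4 and 81.0 cpm in the control group and 16.2, 17.8 and 17.1 cpm in the other, 21.2% of the control level (log2 fold change -2.24 ± 0.04 SE, n = 3 per group, adjusted p = 4.512e-40 by edgeR's quasi-likelihood test).

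The 3 claudins did not change alike. The log2 ratio of Cldn7 to Cldn4 counts moved by -1.21, that of Cldn7 to Cldn6 by -0.85 and that of Cldn6 to Cldn4 by -0.36, each with groups that did not overlap (exact permutation p = 0.1, two-sided, n = 3 per group, 0.14 after adjustment over the 21 ratios and shares). Cldn7 therefore lost the largest part of its level and Cldn4 the smallest.

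**Figure D3:**
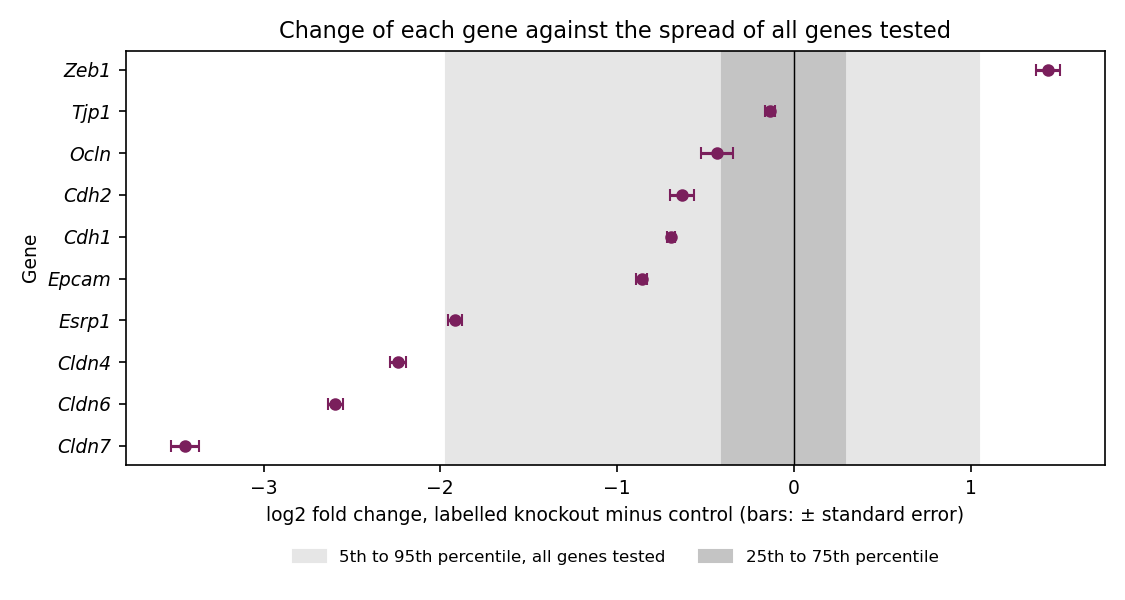
Log2 fold change of the 10 genes in the libraries labelled knockout against the control libraries, with bars for ± SE, over grey bands for the 5th to 95th percentile (-1.97 to 1.045) and the 25th to 75th percentile (-0.40 to 0.29) of all 16823 genes tested. Cldn4, Cldn6, Cldn7 and Zeb1 lie outside the wider band, and Tjp1 lies inside the narrower one.

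Over the 23 claudin genes listed, the summed FPKM was 138.3 ± 1.35 (SD, n = 3) in the control group and 33.9 ± 0.0363 in the other, 24.5% of the control sum. The make-up shifted with it. Cldn6 made up 39.1% ± 0.804 of the sum in the control group and 26.4% ± 0.590 in the other, Cldn4 31.9% ± 0.829 and 27.6% ± 1.29, and Cldn7 15.8% ± 0.644 and 5.92% ± 0.693. Cldn12, which encodes a claudin that lacks the usual binding motif for ZO proteins, went from 8.97% ± 0.751 to 34.9% ± 0.812 of the sum and was the leading claudin per length in the libraries labelled knockout. All 4 shares had groups that did not overlap (exact permutation p = 0.1, two-sided, n = 3 per group). The own level of Cldn12 was 42.9 to 49.9 cpm in the control group and 43.4 to 45.4 cpm in the other and did not pass the test (log2 fold change -0.07 ± 0.04 SE, adjusted p = 0.1485 by edgeR's quasi-likelihood test). It passed without control replicate 2, the control library with its lowest value (log2 fold change -0.12, adjusted p = 0.0129).

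**Figure D4:**
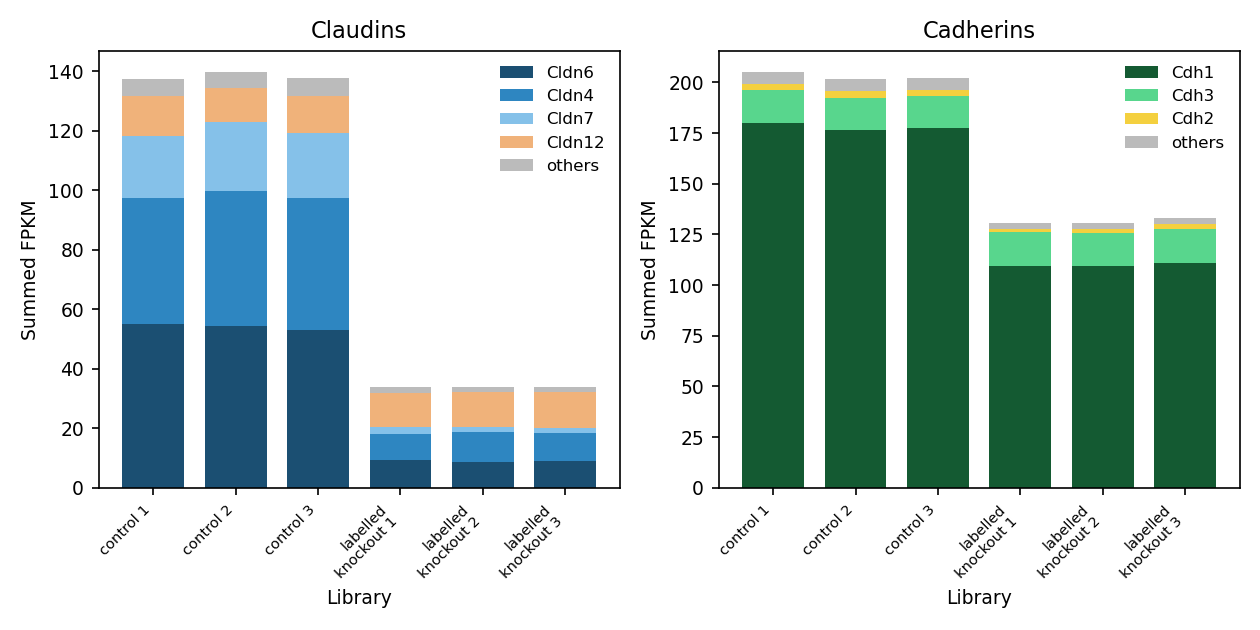
Stacked FPKM of the listed claudins (left, 23 genes) and listed cadherins (right, 14 genes) in each library, with the named genes in colour and the others in grey. The claudin sum is near 138 in the control libraries and near 34 in the others, with Cldn12 at 34.9% of the smaller sum. The cadherin sum is led by Cdh1 in all libraries.

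Of the 20 other claudin genes, 8 were tested, and 9 had at most 3 counts in every library. Of those tested 6 fell and 0 rose, with a median log2 fold change of -1.74, where 35.2% of all genes fell and 34.4% rose. Cldn3 and Cldn9, named because they lie beside members on the chromosome and chosen after their values were seen, changed by as much as those neighbours. Cldn3, 39.3 kb from Cldn4 on chromosome 5, had 84 to 98 counts in the control libraries and 15 to 23 in the others (log2 fold change -2.25). Cldn9, 137 bases from Cldn6 on chromosome 17 and on the opposite strand, had 39 to 55 counts and 5 to 9 counts (log2 fold change -2.58). The log2 ratios of Cldn4 to Cldn3 and of Cldn6 to Cldn9 overlapped between the groups (differences 0.04 and 0.03, exact permutation p = 0.9 and 1, two-sided, n = 3 per group). Claudins resemble each other in sequence, and fragments at several locations were discarded before counting, so the levels of close relatives are less certain than those of single genes.

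Ocln encodes occludin, a membrane protein of the tight junction strand (ENSMUSG00000021638.8, chromosome 13, 100496507 to 100552718). Its level was 7.499, 9.75 and 8.997 cpm in the control libraries and 6.32, 6.78 and 6.34 cpm in the libraries labelled knockout. The groups were close but did not overlap, and the level was 74.1% of that in the control group (log2 fold change -0.43 ± 0.09 SE, n = 3 per group, adjusted p = 4.331e-05 by edgeR's quasi-likelihood test). Tjp1, which encodes the scaffold ZO-1 (ENSMUSG00000030516.10, chromosome 7, 65296165 to 65527781), had 218.4, 203.5 and 206.7 cpm in the control libraries and 190.2, 189.5 and 193.1 cpm in the others, 91.1% of the control level (log2 fold change -0.13 ± 0.03 SE, n = 3 per group, adjusted p = 2.103e-05 by edgeR's quasi-likelihood test). The 59 genes tested within 10 Mb of Tjp1 that had a mean of at least 10 counts had a median log2 fold change of -0.15, about the same as that of Tjp1. For the other 9 members the medians of the neighbouring genes, taken in the same way, ran from -0.18 to 0.09, all smaller in size than the change of the member beside them. The log2 ratio of Ocln to Tjp1 overlapped between groups (-4.59 ± 0.25 and -4.88 ± 0.07, SD, exact permutation p = 0.2, two-sided, n = 3 per group).

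Other tight junction and polarity genes moved in both directions: of 24 tested, 14 fell, 5 rose and 5 did not pass, with a median log2 fold change of -0.19. Among all genes tested 35.2% fell and 34.4% rose. Magi1, a scaffold of cell contacts, rose from 19.96 to 21.6 cpm in the control group to 43.6 to 45.4 cpm (log2 fold change 1.08 ± 0.05 SE). Patj, a protein of the Crumbs polarity complex, fell from between 24.8 and 25.5 cpm to between 9.35 and 9.73 cpm (log2 fold change -1.40 ± 0.06 SE). Ybx3, which encodes the ZO-1-associated factor also called ZONAB and had the highest FPKM of the list, rose from 233.0 to 299.4 (log2 fold change 0.36). Among desmosome genes, which build the third kind of adhesive contact, 5 of 8 tested fell and 1 rose, with a median of -0.73. Dsc2, a desmosomal cadherin, fell from 9.13, 9.24 and 9.65 cpm to 1.65, 1.75 and 1.31 cpm (log2 fold change -2.58 ± 0.12 SE), while Dsg2, its partner cadherin, rose (log2 fold change 0.34). Pkp4, an armadillo protein of junction plaques, had a log2 fold change of 0.06 and did not pass the test in all 6 libraries (adjusted p = 0.06005 by edgeR's quasi-likelihood test), though it did without control replicate 1 (adjusted p = 0.0299).

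Esrp1 encodes an RNA-binding protein that directs epithelial splicing of many transcripts (ENSMUSG00000040728.11, chromosome 4, 11331933 to 11386783). It was measured at 85.2, 84.4 and 85.9 cpm in the control libraries and at 21.8, 23.2 and 22.7 cpm in the libraries labelled knockout. The groups were well apart, and the level was 26.5% of that in the control group (log2 fold change -1.92 ± 0.04 SE, n = 3 per group, adjusted p = 3.16e-39 by edgeR's quasi-likelihood test). Its relative Esrp2, named because the ratio turns on it, also fell, by 1.38 on the log2 scale, and the log2 ratio of Esrp1 to Esrp2 was lower in the libraries labelled knockout (0.97 ± 0.03 against 1.51 ± 0.04, exact permutation p = 0.1, two-sided, n = 3 per group).

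Zeb1, the transcription factor (ENSMUSG00000024238.9, chromosome 18, 5591860 to 5775467), was measured at 7.18, 7.35 and 7.43 cpm in the control libraries and at 18.8, 21.5 and 19.3 cpm in the libraries labelled knockout. Raw counts of 202 to 204 and of 492 to 546 stood behind these values. The groups did not overlap, and the level was 271% of that in the control group (log2 fold change 1.44 ± 0.07 SE, n = 3 per group, adjusted p = 7.643e-24 by edgeR's quasi-likelihood test). Per length it stayed low, at an FPKM of 3.43 ± 0.239. The ratio of Zeb1 to Esrp1 counts was 0.0842, 0.0871 and 0.0866 in the control group against 0.863, 0.926 and 0.852 in the libraries labelled knockout, a 10.2-fold rise (log2 difference 3.36, exact permutation p = 0.1, two-sided, n = 3 per group). Its relative Zeb2, named because the ratio turns on it, fell (log2 fold change -0.69, 50 to 63 counts against 29 to 40), and the log2 ratio of Zeb1 to Zeb2 rose by 2.14.

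The listed EMT transcription factors did not move together. Of 11 tested, 3 rose, 4 fell and 4 did not pass, with a median log2 fold change of -0.24. Over all genes tested 34.4% rose and 35.2% fell, so calls in both directions were common in any set. Snai3 rose from 13.5 to 14.5 cpm in the control group to 22.3 to 23.3 cpm (log2 fold change 0.69 ± 0.06 SE). Tcf3, which encodes an E-box binding factor and had the highest level, fell (log2 fold change -0.24). Snai1, an E-cadherin repressor singled out after its values were seen, had 97 to 114 counts in the control libraries and 19 to 21 in the others (log2 fold change -2.33). Genes usually higher in mesenchymal cells were split as well: 4 of 10 rose and 5 fell. The risers were Ncam1, a neural cell adhesion molecule (log2 fold change 1.19), Sparc, a matrix protein (0.15), and, named because they complete the 4, Vim, an intermediate filament gene (1.07, from 120.3 to 121.8 cpm in the control group to 246.0 to 262.4 cpm), and Fn1, fibronectin (0.75, from 661.3 to 700.9 cpm to 1118 to 1148 cpm). The summed FPKM of the list was 338.0 to 340.5 in the control libraries against 427.9 to 436.7, while its median log2 fold change was -0.42. Acta2, smooth muscle actin, fell from 27.8, 27.3 and 29.2 cpm to 1.23, 1.46 and 1.52 cpm (log2 fold change -4.32 ± 0.09 SE). The other fallers, named because they complete the 5, were S100a4 (-1.5), Mmp2 (-0.86), Mmp14 (-0.75) and Itga5 (-0.69).

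**Figure D5:**
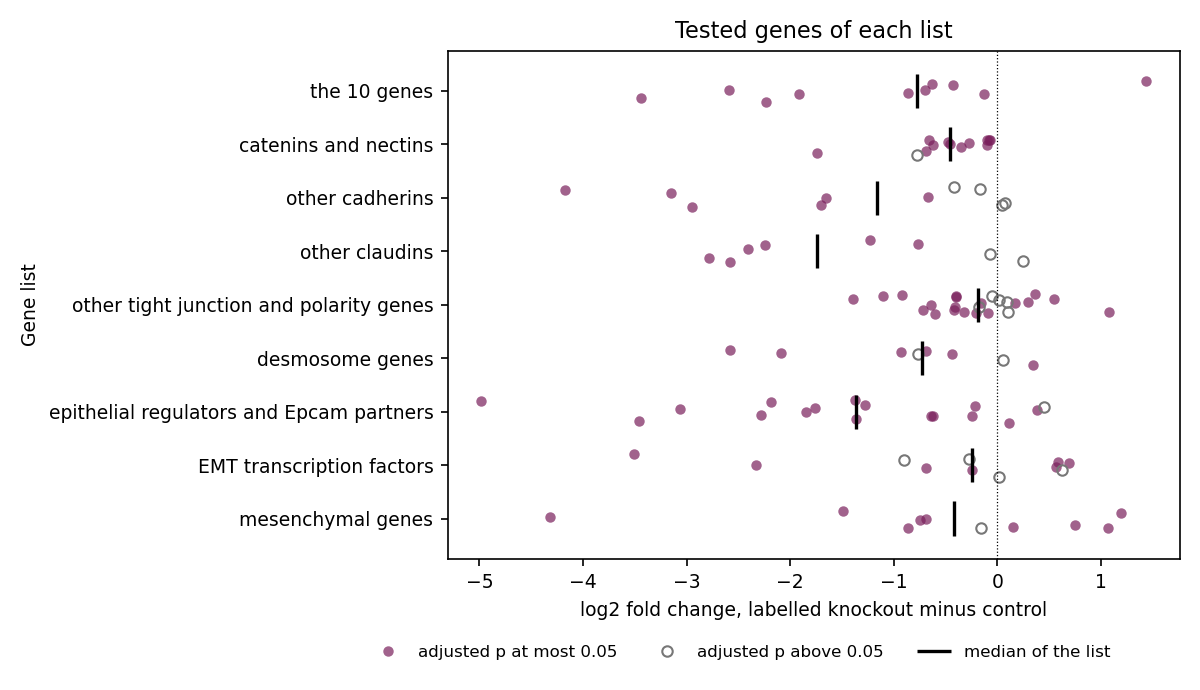
Log2 fold change of each tested gene in the 10 genes and in 8 further lists of junction, regulator and mesenchymal genes, filled where the adjusted p was at most 0.05 and open otherwise, with a bar at each list's median. The medians run from -1.74 in the other claudins to -0.19 in the other tight junction and polarity genes.

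Of 17 epithelial regulators and partners of Epcam, 14 fell and 2 rose, with a median log2 fold change of -1.37, and 10 of the 14 fell by more than 1. Among all genes tested 35.2% fell, 34.4% rose and 11.8% fell by more than 1. Ap1m2, an adaptor subunit for basolateral sorting in epithelial cells, fell from 41.1, 41.7 and 41.8 cpm to 3.75, 3.62 and 3.90 cpm (log2 fold change -3.46 ± 0.07 SE). Grhl3, a transcription factor of epithelial barriers, rose (log2 fold change 0.38). Spint2, an inhibitor of membrane proteases and the member of this list with the highest level, fell (log2 fold change -0.22). Grhl2, a relative of Grhl3 singled out after its values were seen, went the other way, from 55.6, 56.1 and 56.4 cpm to 12.8, 11.3 and 12.8 cpm (log2 fold change -2.18). Over the 8 lists, 101 of 117 genes were tested, of which 66 fell, 15 rose and 20 did not pass, with a median log2 fold change of -0.46.

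Transcripts of other cell types also differed between the groups, where 35.2% of all genes tested fell and 34.4% rose. Of 8 fibroblast markers 7 were tested, of which 6 fell and 0 rose (median log2 fold change -3.15), and their summed FPKM was 13.3 to 13.6 in the control libraries and 3.69 to 3.94 in the others. Lum was at 0 in all libraries. Of 6 trophoblast markers 4 fell and 1 rose, with a median log2 fold change of -1.27. Their summed FPKM was 26.2 to 27.6 against 24.6 to 25.6, most of it from Tfap2c, which rose (mean FPKM 17.9 and 23.6), while Krt7 (3.70 and 0.415), Hand1 (3.87 and 0.435), Gata3 (1.28 and 0.458) and Cdx2 (0.282 and 0.135) fell. These 5 were named after their values were seen. Of 7 endoderm markers 6 were tested, of which 3 fell and 1 rose, with sums that overlapped (2.78 to 2.98 and 2.48 to 3.03). Of 6 neural progenitor markers 4 were tested (2 lower, 1 higher), with sums of 2.96 to 3.10 and 2.40 to 2.48. Of 6 primitive streak and mesoderm markers 5 were tested (1 lower, 2 higher), with sums of 3.19 to 3.36 and 3.43 to 3.88. Of the 8 pluripotent cell markers 7 rose and 1 fell, and their summed FPKM was 3779 to 3896 in the control libraries and 4494 to 4552 in the libraries labelled knockout. The part of other cell types in the junction values was not tested.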

How the data were processed

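Strand-specific TruSeq mRNA libraries of 6 mESC clones were analysed, 3 per group. The deposited values are raw counts per gene: the authors removed rRNA reads with Bowtie2 2.1.0, mapped the others to mm10 with TopHat2 2.0.10 and counted fragments per GENCODE M4 gene with HTSeq 0.6.1, using the strand and discarding fragments at several genes or locations. Columns that matched no sample numbered 0. The 10 genes and all lists were chosen with earlier results of these data known. The text names all 10 members, in each other list the gene with the highest FPKM and the largest rise and fall among genes past the test whose counts averaged 100 or more and whose groups were apart, and a few others said to be chosen later.

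Counts were scaled by TMM and tested with edgeR 4.0.16 (R 4.3.3) by the quasi-likelihood test, for genes reaching 10 counts in 1 or more libraries, with Benjamini-Hochberg adjustment over the 16823 genes tested and a threshold of 0.05. A standard error is the absolute log2 fold change divided by the square root of F. FPKM was the TMM-scaled cpm per kilobase of the longest GENCODE M21 transcript. Ratios and shares were compared by exact two-sided permutation in scipy 1.17.1. The fit was tested on simulated data. Library totals of 25042261 to 28838924 counts set the counting error, which makes up most of the spread between clones at the median gene. Other scalings, filters and tests (DESeq2 1.42.0 among them), the replicate block and each library left out were tried. Promoters came from RefSeq. The set used held none for Cdh1 and Esrp1, and those of Cdh2 and Zeb1, on chromosome 18, were left out.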

Additional observations from a re-analysis of the deposited data

How the results depend on the processing

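The 10 genes kept their direction and their side of the threshold under every alternative scaling, test, filter, block and left-out library tried. Ocln ranged from -0.54 to -0.35 and Tjp1 from -0.18 to -0.11 on the log2 scale, with highest adjusted p of 0.00203 and 0.000524. A second call rule, a change of 1 or more on the log2 scale, left 4 members lower and 1 higher, and among the 117 genes of the junction, regulator and mesenchymal lists left 29 lower and 3 higher in place of 66 and 15, by the construction of that rule. Leaving out each library in turn gave 63 to 66 lower and 13 to 16 higher. Scaling by library totals turned Cdh3 to -0.00485 on the log2 scale (adjusted p = 0.9 by edgeR's quasi-likelihood test). It also brought Cldn12 past the threshold, as leaving out control replicate 2 did, and Pkp4 passed with TMM factors from genes outside chromosomes 1, 6 and 8 and without control replicate 1. The share of Cldn6 among the claudins changed by -12.72 percentage points in FPKM, by -16.89 as a share of counts with no length correction, and by -13.07 to -12.28 with each library left out in turn.

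Same-numbered libraries of the groups correlated in their deviations from the group means at 0.006, 0.072 and 0.015 over 11115 genes, so the numbers were not taken to pair the clones. With the replicate number as a block, 11801 genes were called in place of 11697, the members gave 9 lower and 1 higher, and the listed genes gave 66 and 15. Paired sign changes of the ratios can give no p below 0.25.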
